A study of Homo sapiens with 5 samples.

Results

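HOX genes encode homeodomain transcription factors, and 29 of the 39 human HOX genes of RefSeq had at least 1 named probe on the arrays. They were chosen by symbol alone, as HOXA, HOXB, HOXC or HOXD followed only by digits, and all 36 of their probes were read, among 20041 genes and 47296 probes in all. The HOXB, HOXC and HOXD clusters were fully represented, with 10 of 10, 9 of 9 and 9 of 9 genes on chromosomes 17, 12 and 2. Of the HOXA cluster on chromosome 7 only HOXA2 had a named probe (1 of 11), and the rest of that cluster was not analysed here.

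The study asked what a raised supply of pyruvate does while BMP4 turns human embryonic stem cells towards mesoderm. RNA came from H1, an established human embryonic stem cell line, and was read on Illumina BeadChips, whose probes each give a fluorescence intensity and a detection p against the array's own negative controls. The 5 arrays held 1 culture each: BMP4 plus 16 mM pyruvate for 6 days, BMP4 plus 16 mM pyruvate for 2 days, BMP4 for 2 days, 16 mM pyruvate for 2 days, and E8 for 2 days. Every culture was the same unedited line in E8, a defined maintenance medium, and the labels give no BMP4 dose. With 1 array per condition no difference carries an error or a test, and the number of arrays limits the precision. No array held day 6 without BMP4 or without pyruvate, so time and treatment cannot be told apart where day 6 is set against E8.

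Within each cluster, HOX genes are numbered by their place, and genes with the same number in different clusters are paralogs. In embryos the low-numbered genes start earlier and reach further towards the head, and the high-numbered genes start later and stay towards the tail, an order called collinearity. In embryonic stem cells the clusters are known to be held silent under Polycomb marks. WNT, FGF and retinoic acid signals and the CDX factors are known to open them as posterior mesoderm forms.

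Levels are given as normalized signal on the log2 scale, after background correction and quantile normalization. A gene counted as detected at a detection p under 0.01 on any of its probes, and as higher or lower at 2-fold or more, given detection on the brighter of the arrays compared, which is a rule of size. Where it was not detected on the dimmer array the fold is a bound under this processing, written as at least N-fold. The arrays detected 35.2% to 40.1% of all probes. The markers of the labelled cell type were present: 9 of 9 measured pluripotency genes were detected on each day 2 array and 6 on day 6, where NANOG, SOX2 and PRDM14 were not.

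HOX detection was broad on day 6 and sparse on day 2. On day 6 of BMP4 plus pyruvate, 15 of 29 HOX genes (51.7%) were detected, beside 52.8% of all genes. At day 2 the array of BMP4 plus pyruvate detected 5 (17.2%, beside 54.5% of all genes), that of BMP4 detected 2 (6.90%, beside 52.0%), that of pyruvate 4 (13.8%, beside 52.1%) and that of E8 4 (13.8%, beside 56.6%). The HOX share was thus close to the share of all genes on day 6 and far under it on every day 2 array, at 17.2% or lower. Detected at day 6 alone were 9 genes, and 13 were detected on no array.

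**Figure D1:**
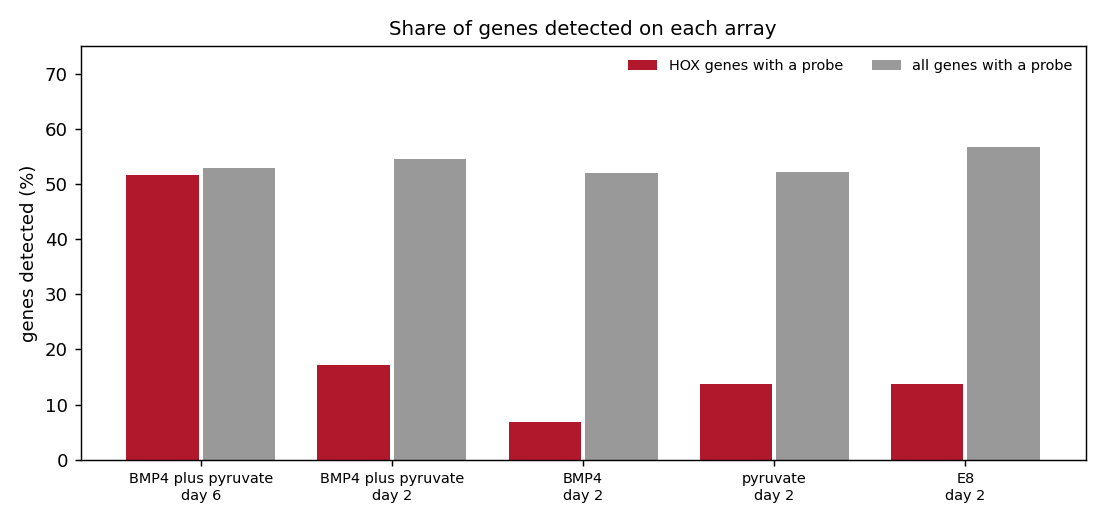
Share of genes detected (%, detection p under 0.01 on any probe) on each array, for the 29 HOX genes with a probe (red) and all 20041 genes with a probe (grey). The red bar reaches 51.7% on day 6 and stays between 6.90% and 17.2% on the 4 day 2 arrays, while the grey bars lie between 52.0% and 56.6%.

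Day 6 of BMP4 plus pyruvate was first set against E8 at day 2. Of the 15 HOX genes detected on either array, 13 were higher on day 6 and 0 lower, where 12.4% of all 12018 genes detected on either array were higher and 12.3% lower. The median log2 difference of the 15 was 2.20, or 1.24 with undetected signals at their bound, and that of all genes was -0.04. By the bound as well as by the measured difference, 8 of the 13 were at least 2-fold higher, as were 1318 of the 12018. The other 5, HOXA2, HOXB3, HOXB13, HOXC8 and HOXD10, lay close to the limit of detection, HOXB3 by its probe with the higher mean signal. The other HOXB3 probe had 6.73 on day 6 and 4.70, undetected, in E8. Differences are relative to all probes of an array, and in RNA from whole cultures fewer cells of a type and less RNA per cell cannot be told apart.

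**Figure D2:**
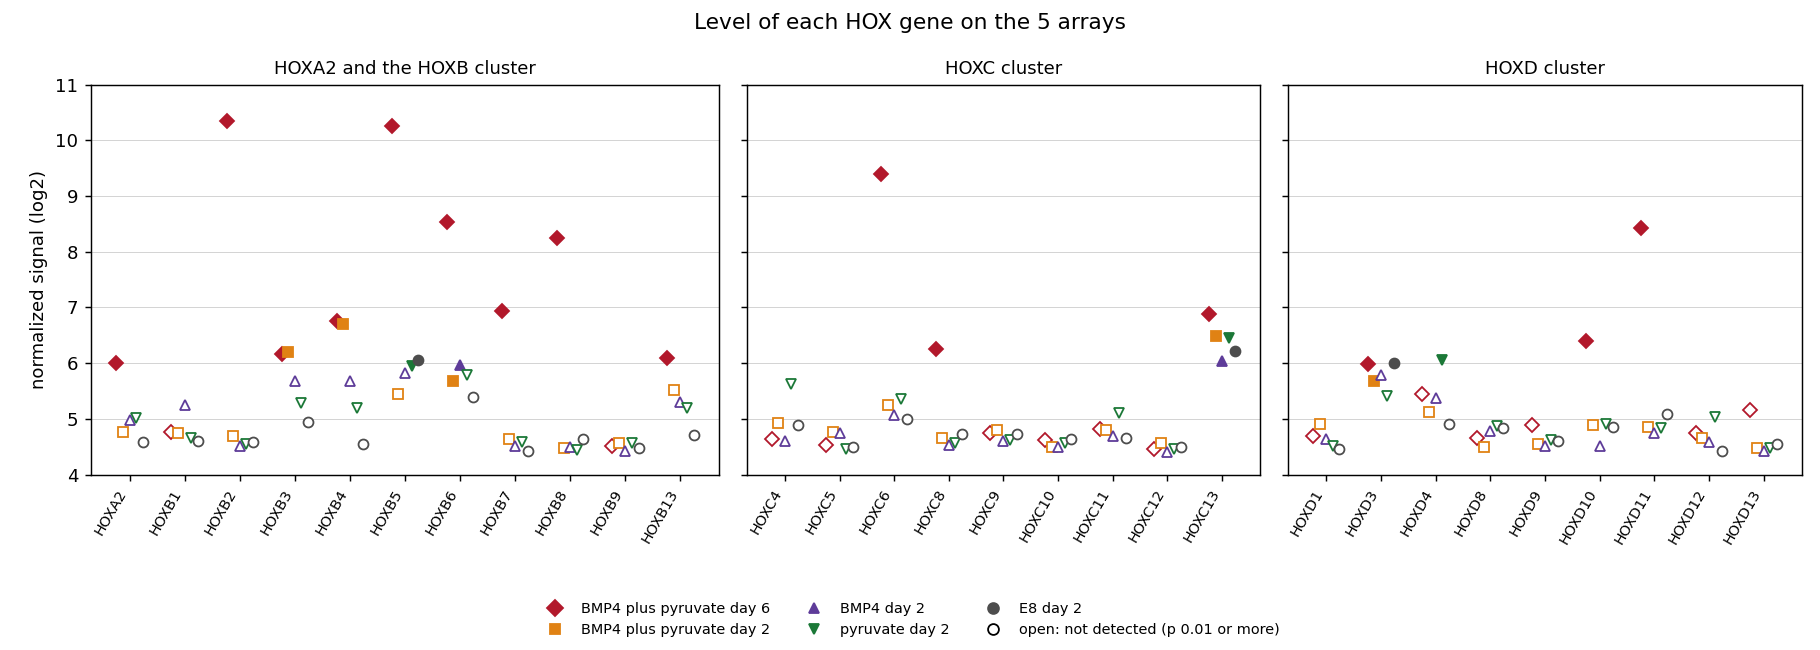
Normalized signal (log2) of each HOX gene with a probe, by cluster and paralog number, with 1 symbol per array. Filled symbols are detected, and open ones are not. The day 6 diamonds stand apart at HOXB2, HOXB5, HOXB6, HOXB8, HOXC6 and HOXD11, and the open symbols lie between 4.41 and 5.83.

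The HOXB cluster gave most of the detected genes, 8 of its 10, and the 7 neighbours from HOXB2 to HOXB8 were all detected and all higher on day 6. HOXB2, which patterns the hindbrain and its facial motor neurons, had a signal of 10.35 in BMP4 plus pyruvate at day 6. It had 4.69 in BMP4 plus pyruvate, 4.52 in BMP4, 4.54 in pyruvate and 4.58 in E8 at day 2, and its raw intensity was 1468 on day 6 against 138 in E8. HOXB2 was thus undetected on all 4 day 2 arrays and bright on day 6, a difference of at least 28.5-fold against E8.

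HOXB5, expressed in trunk neural tube, neural crest and mesoderm, had 10.25 in BMP4 plus pyruvate at day 6, against 5.45 in BMP4 plus pyruvate, 5.83 in BMP4, 5.94 in pyruvate and 6.05 in E8 at day 2. Unlike HOXB2 it was already detected, dimly, in E8 and in pyruvate, so its 18.4-fold difference against E8 is measured on both sides. HOXB8, whose product holds blood progenitors in an immature state when overexpressed, had 8.25 on day 6 against 4.47 in BMP4 plus pyruvate, 4.49 in BMP4, 4.44 in pyruvate and 4.63 in E8 at day 2, at least 6.66-fold above E8. HOXB7, a trunk gene, had 6.93 on day 6 against 4.64 in BMP4 plus pyruvate, 4.52 in BMP4, 4.58 in pyruvate and 4.42 in E8 at day 2, at least 2.66-fold above E8. HOXB7 and HOXB8 were undetected on every day 2 array.

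HOXB6, which is expressed in lateral mesoderm and early erythroid cells, had 8.54 on day 6 against 5.67 in BMP4 plus pyruvate, 5.96 in BMP4, 5.79 in pyruvate and 5.40 in E8 at day 2. It was at least 8.17-fold above E8, where this probe was undetected and the gene counts as detected through its other probe. With the mean of its detected probes the log2 difference was 1.82 in place of 3.14. HOXB9, which shapes the ribs in mice, and HOXB1, which specifies a hindbrain segment, were undetected on all arrays, on either side of the block. HOXB13, a tail-end gene known from the prostate, lies apart from the rest of the cluster. Its probe had 6.10 on day 6 against 5.51 in BMP4 plus pyruvate, 5.30 in BMP4, 5.20 in pyruvate and 4.71 in E8 at day 2, with only day 6 detected and a difference from E8 of at least 1.50-fold.

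HOXB4 differed from its neighbours in timing, as did the probe that stands for HOXB3, but not the other HOXB3 probe. HOXB4, which is known to expand blood stem cells when overexpressed, had 6.75 in BMP4 plus pyruvate at day 6 and 6.70 in BMP4 plus pyruvate at day 2, against 5.68 in BMP4, 5.20 in pyruvate and 4.55 in E8. It was detected on the 2 arrays of BMP4 plus pyruvate alone, at almost the same level, with a log2 difference between day 6 and day 2 of 0.06. HOXB3, a hindbrain and neck gene, was read by 2 probes that did not move alike. The one with the higher mean signal, which stands for the gene, had 6.16 in BMP4 plus pyruvate at day 6 and 6.19 at day 2. It had 5.67 in BMP4, 5.29 in pyruvate and 4.94 in E8, with the day 2 arrays in the same order as for HOXB4. At day 2 both this probe and that of HOXB4 were detected in BMP4 plus pyruvate alone, so the order of the rest is among undetected signals. The other HOXB3 probe had 6.73 on day 6 and 4.48 to 4.70 on the 4 day 2 arrays, where it was undetected, as HOXB2 was. The platform annotation assigns the probe that stands for HOXB3 to a sequence record outside RefSeq. It assigns the other HOXB3 probe, which rose on day 6 only, to a RefSeq transcript of HOXB3. In the RefSeq annotation HOXB4 lies within the span of HOXB3, and which transcript each probe reads was not tested.

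**Figure D3:**
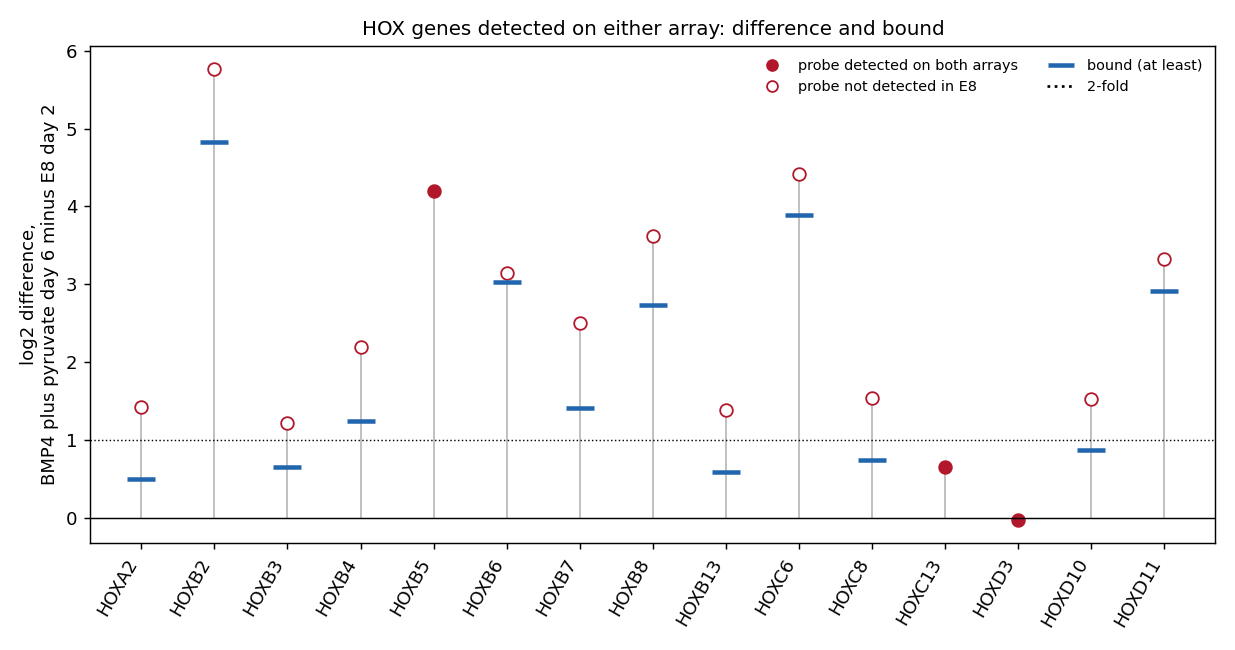
Log2 difference, BMP4 plus pyruvate at day 6 minus E8 at day 2, for the 15 HOX genes detected on either array by any probe. Circles are measured differences (open where the probe shown was undetected in E8), blue bars are the bounds, and the dotted line marks 2-fold. HOXB2 has the highest bound, and HOXC13 and HOXD3 lie under the line.

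In the HOXC cluster 3 of 9 genes were detected on day 6. HOXC6, a brachial and thoracic gene, had 9.40 in BMP4 plus pyruvate at day 6, against 5.25 in BMP4 plus pyruvate, 5.07 in BMP4, 5.36 in pyruvate and 4.99 in E8 at day 2. Only day 6 was detected, at least 14.8-fold above E8. HOXC8, which patterns thoracic vertebrae and brachial motor neurons, had 6.26 on day 6 against 4.66 in BMP4 plus pyruvate, 4.53 in BMP4, 4.57 in pyruvate and 4.72 in E8 at day 2, at least 1.68-fold above E8. It too was detected on day 6 alone. HOXC13, needed for hair and nails, was one of 2 HOX genes detected on all 5 arrays, with HOXB6 as read by either of its probes. Its signal was 6.88 on day 6 against 6.48 in BMP4 plus pyruvate, 6.03 in BMP4, 6.45 in pyruvate and 6.22 in E8 at day 2, and the 1.58-fold difference from E8 was under the 2-fold rule. HOXC4, HOXC5, HOXC9, HOXC10, HOXC11 and HOXC12 were undetected on all arrays.

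The HOXD cluster also had 3 of 9 genes detected on day 6, and its pattern was not a run from one end. HOXD11, a limb and kidney gene, had 8.42 in BMP4 plus pyruvate at day 6, against 4.86 in BMP4 plus pyruvate, 4.75 in BMP4, 4.84 in pyruvate and 5.09 in E8 at day 2, at least 7.51-fold above E8. Its neighbour HOXD10, which patterns lumbar motor neurons, had 6.39 on day 6 against 4.88 in BMP4 plus pyruvate, 4.52 in BMP4, 4.91 in pyruvate and 4.86 in E8 at day 2, at least 1.84-fold above E8. Both were detected on day 6 alone, while the genes on either side, HOXD9 and HOXD12, were undetected everywhere. HOXD13, the digit gene at the end of the cluster, had 5.16 on day 6 and 4.43 to 4.55 on the 4 day 2 arrays, above them all but undetected, with a detection p of 0.091 on day 6.

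HOXD3, a neck vertebra gene, had 5.98 on day 6, against 5.68 in BMP4 plus pyruvate, 5.79 in BMP4, 5.41 in pyruvate and 6.01 in E8 at day 2, and its log2 difference from E8 was -0.03. HOXD4, its neighbour, had 5.45 on day 6 against 5.12 in BMP4 plus pyruvate, 5.37 in BMP4, 6.05 in pyruvate and 4.90 in E8 at day 2, and was detected in pyruvate only. HOXD1, HOXD8 and HOXD12 were undetected on all arrays. Over all 13 HOX genes detected nowhere, single probe signals ran from 4.41 to 5.72.

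The promoters of HOXD10 and HOXD11 are shown beside those of HOXD12 and HOXD13, since these neighbours differed on day 6, together with that of HOXA2, the one gene of its cluster that was read. Each is the 250 bases before the start in the RefSeq promoter table of GRCh38.p14, at chr2:176116528-176116777 for HOXD10, chr2:176107030-176107279 for HOXD11, chr2:176099545-176099794 for HOXD12 and chr2:176092471-176092720 for HOXD13, all on the plus strand, and at chr7:27102684-27102933 for HOXA2, on the minus strand. Sequences run 5′ to 3′ towards the gene. Capitals mark TGATTNAT, the joint PBX and HOX motif, read on both strands.

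HOXD10: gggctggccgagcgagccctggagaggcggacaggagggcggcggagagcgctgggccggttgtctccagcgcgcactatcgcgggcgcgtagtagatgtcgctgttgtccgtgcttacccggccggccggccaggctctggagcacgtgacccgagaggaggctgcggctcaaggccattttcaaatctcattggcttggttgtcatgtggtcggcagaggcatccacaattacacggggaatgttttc
HOXD11: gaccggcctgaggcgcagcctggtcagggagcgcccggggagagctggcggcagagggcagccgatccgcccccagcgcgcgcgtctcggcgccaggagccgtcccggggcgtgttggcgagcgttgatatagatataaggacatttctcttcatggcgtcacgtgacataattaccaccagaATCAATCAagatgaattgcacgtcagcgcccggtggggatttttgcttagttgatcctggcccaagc
HOXD12: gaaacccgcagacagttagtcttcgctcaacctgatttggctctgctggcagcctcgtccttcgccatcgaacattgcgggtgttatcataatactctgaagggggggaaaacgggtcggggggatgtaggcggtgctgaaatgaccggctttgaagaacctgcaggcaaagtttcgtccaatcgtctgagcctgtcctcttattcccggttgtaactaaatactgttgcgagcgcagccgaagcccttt
HOXD13: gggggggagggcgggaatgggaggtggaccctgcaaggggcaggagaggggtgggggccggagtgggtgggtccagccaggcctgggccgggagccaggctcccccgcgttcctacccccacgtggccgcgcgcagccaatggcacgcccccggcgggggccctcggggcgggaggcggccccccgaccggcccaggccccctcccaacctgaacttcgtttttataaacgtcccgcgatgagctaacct
HOXA2: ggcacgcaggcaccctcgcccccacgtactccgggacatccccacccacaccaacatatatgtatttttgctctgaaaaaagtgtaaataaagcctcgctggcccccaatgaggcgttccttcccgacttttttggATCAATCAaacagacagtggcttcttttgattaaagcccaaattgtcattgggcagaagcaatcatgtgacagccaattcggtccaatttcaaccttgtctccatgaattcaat

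HOXD11 held 1 match to TGATTNAT, on the reverse strand from base 67 to base 60 before the start, and HOXA2 held 1, from base 114 to base 107. HOXD10, HOXD12 and HOXD13 held none. The motif is held by 2.48% of all 35116 promoters tabulated, and of the 12 HOX genes with both a probe and an entry these 2 do. TAATTA, a core homeodomain letter run, stood in HOXD11 from base 81 to base 76, and 4.35% of all promoters hold it. The 4 HOXD windows are rich in CpG, with 23, 23, 16 and 21 in HOXD10, HOXD11, HOXD12 and HOXD13, beside a median of 11 over all promoters, and HOXA2 held 8. HOXD13, undetected, thus held nearly as many CpG as the detected HOXD10 and HOXD11. A match describes letters only, and binding was not measured.

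HOXA2, which patterns the hindbrain and the second branchial arch, had 6.01 in BMP4 plus pyruvate at day 6, against 4.76 in BMP4 plus pyruvate, 4.97 in BMP4, 5.02 in pyruvate and 4.59 in E8 at day 2. Only day 6 was detected, at least 1.41-fold above E8. A second HOXA2 probe was undetected on all arrays, with 4.80 on day 6 and 4.51 to 4.84 at day 2.

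Grouped by paralog number, the genes higher on day 6 than in E8 were not from one end of the clusters. Of the anterior genes, numbered 1 to 3, 4 of 6 were detected on day 6 and 3 were higher. Of the central genes, numbered 4 to 8, 7 of 11 were detected and 7 were higher. Of the posterior genes, numbered 9 to 13, 4 of 12 were detected and 3 were higher. Of these 3, HOXB13 and HOXD10 lay close to the limit of detection. Under all 6 processing alternatives the size rule was passed by HOXB2 alone of the anterior genes and HOXD11 alone of the posterior genes. The central genes to pass it each time were HOXB5, HOXB6, HOXB7, HOXB8 and HOXC6. The highest bound was that of HOXB2 among the anterior genes and that of HOXD11 among the posterior genes, and the central genes included HOXB5, measured at 18.4-fold, and HOXC6, at least 14.8-fold.

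Probes of one gene did not always behave alike, which bears on how firmly a gene can be called. Among 5 genes with more than 1 probe, HOXC6 had 4, and 1 of them was detected. Probe ILMN_1794492 gave the 9.40 above on day 6. Probe ILMN_1740104, assigned to the same transcript, had 5.37 on day 6 against 5.17 to 5.38 at day 2, and both probes of a second HOXC6 transcript, at 4.52 and 4.69 on day 6, did not stand above the day 2 arrays. The second HOXB6 probe had 6.02 on day 6 and 5.52 in E8, a log2 difference of 0.49. One HOXC4 probe had 5.72 on day 6 against 4.56 to 4.69 at day 2 but missed detection with a p of 0.016, while the other had 4.63 on day 6 and 4.61 to 5.62 at day 2.

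**Figure D4:**
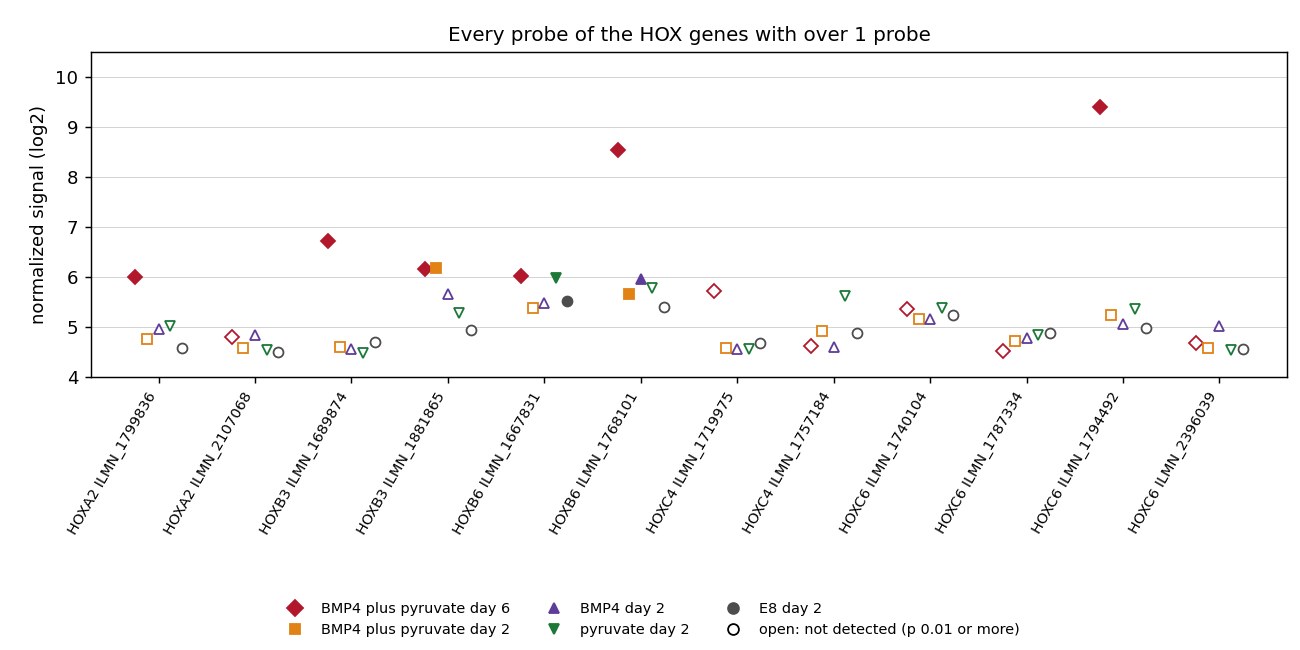
Normalized signal (log2) of every probe of the 5 HOX genes with over 1 probe, with 1 symbol per array, filled where detected. One HOXC6 probe of 4 and one HOXB6 probe of 2 carry the high day 6 values of those genes.

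Against the same mixture at day 2, which by its label differs in time alone, 10 of 15 HOX genes detected on either array were higher on day 6 and 0 lower, where 13.5% of all 11661 genes were higher and 13.0% lower. The median log2 difference was 1.61, or 0.72 with undetected signals at their bound, and -0.01 over all genes. By the bound too, 7 were at least 2-fold higher, as were 1369 of the 11661. HOXB2 was higher by at least 25.6-fold, HOXB5 by at least 24.0-fold, HOXC6 by at least 13.3-fold, HOXB6 by 7.32-fold, HOXD11 by at least 6.73-fold and HOXB8 by at least 5.97-fold. All 10 were also among the 13 above, and the comparisons share the day 6 array. Of the other three, HOXB3 and HOXB4 had log2 differences of -0.03 and 0.06, and HOXB13 was at least 1.35-fold higher. With the mean of its detected probes HOXB3 reached 1.04 and the count was 11.

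Over single probes, 10 HOX probes, of 10 genes, were detected on day 6 and lay at least 1 log2 unit above all 4 day 2 arrays. That is 27.8% of the HOX probes, and 3.74% of the 30105 named probes. Among the day 2 arrays the median range of a HOX probe was 0.37, beside 0.46 over all named probes, but most HOX probes were undetected there, so this range says nothing of how steady HOX levels were. The widest range, 2.14, belonged to HOXB4. The day 6 calls rested in part on dim probes. Without background correction 7 of the 13 remained at least 2-fold above E8 and 6 of the 10 above day 2, and with an offset of 50 in the correction 8 of the 13 did.

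At day 2 few HOX genes passed the size rule. Pyruvate added to BMP4, set against BMP4, gave 1 higher (HOXB4) and 0 lower of 5 detected on either array, where 3.71% of all 11230 genes were higher and 3.05% lower. HOXB4 had an intensity of 255 in BMP4 plus pyruvate and 161 in BMP4, a difference of at least 1.76-fold. The probe that stands for HOXB3 was at least 1.24-fold higher in BMP4 plus pyruvate, and the other HOXB3 probe was undetected on both arrays. The median of the 5 was 0.45, and -0.02 over all genes. The HOXB4 difference, 1.02, was at the edge of the rule and fell below it with no background correction, with scaling in place of quantiles, with the deposited log2 values and with an offset of 50.

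BMP4 plus pyruvate against pyruvate, both at day 2, gave 1 higher (HOXB4, at least 1.73-fold) and 0 lower of 7, where 6.45% of all 11309 genes were higher and 5.76% lower. With scaling the count was 1 higher and 1 lower, the second being HOXD4, at a log2 difference of -1.20 in place of -0.94. The HOXB4 call was lost without background correction and at an offset of 50. BMP4 against E8 gave 0 higher and 0 lower of 4, where 2.68% of all 11582 genes were higher and 2.51% lower. HOXB4 was undetected on both of those arrays.

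Pyruvate against E8 gave 1 higher, HOXD4, and 0 lower of 5, where 1.04% of all 11504 genes were higher and 1.32% lower. HOXD4 had an intensity of 183 in pyruvate and 156 in E8, a bound of at least 1.45-fold. The call was lost under 3 of 6 alternatives, without background correction, with the deposited log2 values and at an offset of 50, and the gene was undetected on the other 4 arrays.

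The TALE genes encode the PBX, MEIS and PKNOX homeodomain proteins that bind DNA together with HOX proteins. Of 7 detected on day 6 or in E8, 4 were higher on day 6 and 0 lower (12.4% and 12.3% of all genes), with a median of 1.45 (-0.04 over all genes). MEIS2 had 11.69 in BMP4 plus pyruvate at day 6 against 5.20 in BMP4 plus pyruvate, 4.62 in BMP4, 4.85 in pyruvate and 4.67 in E8 at day 2, at least 72.2-fold above E8. MEIS1 had 9.64 on day 6 and 5.02 in E8, at least 17.5-fold higher. PKNOX2 was 4.43-fold and MEIS3 2.73-fold higher, while PBX2, PBX3 and PKNOX1 differed by less than 2-fold. The TALE genes above E8 on day 6 were thus of the MEIS and PKNOX groups, and no PBX gene passed the rule.

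The CDX genes, of the ParaHox family, encode caudal type activators of HOX clusters, and each had its own time course. CDX2 had 8.38 in BMP4 plus pyruvate at day 6 and 6.02 at day 2, against 4.54 in BMP4, 4.61 in pyruvate and 4.65 in E8, and was undetected on the last 3. CDX1 had 5.25 on day 6, undetected, and 6.40 in BMP4 plus pyruvate at day 2, against 4.55 in BMP4, 4.44 in pyruvate and 4.73 in E8. CDX4 ran the other way late on, with 4.69 on day 6, undetected, against 8.04 in BMP4 plus pyruvate, 6.98 in BMP4, 7.08 in pyruvate and 7.47 in E8 at day 2.

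At day 2 all 3 CDX genes were higher in BMP4 plus pyruvate than in BMP4, where 3.71% of all genes were higher. The difference was at least 1.43-fold for CDX1, at least 1.10-fold for CDX2 and 2.09-fold for CDX4. For CDX2 the signal of 6.02 in BMP4 plus pyruvate lay close to 5.88, the lowest detected signal in BMP4. On day 6 CDX2 was at least 7.28-fold above E8 and CDX4 at least 3.04-fold below it. GSX1, GSX2 and PDX1, the rest of the ParaHox family, were undetected on day 6 and in E8.

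**Figure D5:**
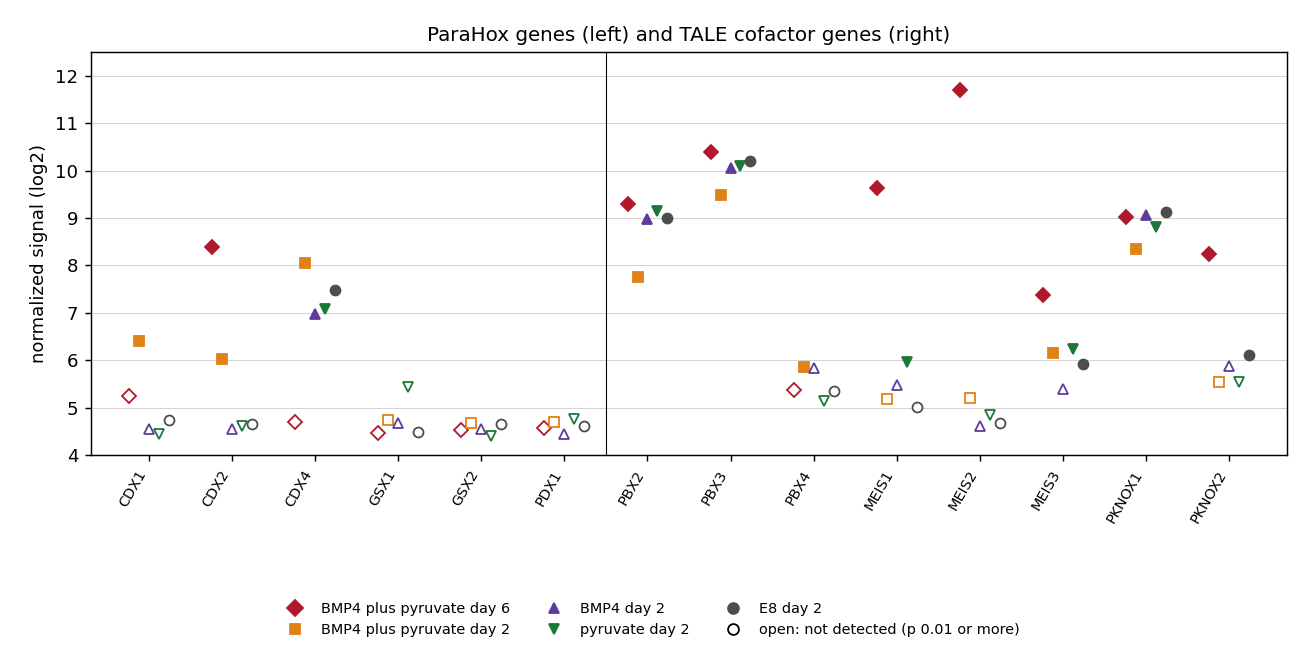
Normalized signal (log2) of the 6 ParaHox genes and 8 TALE cofactor genes with a probe, with 1 symbol per array, filled where detected. CDX1 and CDX4 are highest in BMP4 plus pyruvate at day 2, CDX2 is highest on day 6, and MEIS1 and MEIS2 stand high on day 6.

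Signals that set HOX expression were read through gene lists. Of 14 retinoic acid genes detected on day 6 or in E8, 8 were higher on day 6 and 1 lower (12.4% and 12.3% of all genes), with a median of 1.40. CYP26A1, which degrades retinoic acid and is itself induced by it, had 12.89 in BMP4 plus pyruvate at day 6 against 6.25 in BMP4 plus pyruvate, 7.29 in BMP4, 8.24 in pyruvate and 9.03 in E8 at day 2. It was lowest in BMP4 plus pyruvate at day 2 and highest on day 6, 14.5-fold above E8. STRA6, the retinol uptake receptor, was 7.71-fold, the synthesis enzymes ALDH1A3 and RDH10 3.67-fold and 3.36-fold, the binding protein CRABP2 3.60-fold and the receptor RXRG at least 2.96-fold higher, and the retinal reductase DHRS3 2.17-fold lower on day 6 than in E8.

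Of 8 posterior signalling genes, 5 were higher on day 6 than in E8 and 1 lower (12.4% and 12.3% of all genes), with a median of 2.63. WNT5B was 7.79-fold, WNT5A 7.27-fold and WNT3 6.84-fold higher, FGF17 at least 7.57-fold and WNT3A at least 3.63-fold higher, and NODAL 2.35-fold lower. In BMP4 plus pyruvate against BMP4 at day 2, 5 of 7 were higher and 1 lower (3.71% and 3.05% of all genes), with WNT5B 3.80-fold, NODAL 3.19-fold, WNT3 3.15-fold, FGF8 2.68-fold and FGF17 at least 2.59-fold higher, and GDF11 2.20-fold lower. Several ligands and CDX genes thus passed the rule in this comparison, in which HOXB4 was the one HOX gene to do so.

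Among chromatin regulators known to hold or release the clusters, 3 of 20 Polycomb genes detected on day 6 or in E8 were higher on day 6, 3 lower and 14 neither, with a median of -0.32. These shares are near those of all genes (12.4% and 12.3%). BMI1 was 5.75-fold, PHF1 2.66-fold and PHC2 at least 2.27-fold higher, while PHC1 was 6.38-fold, JARID2 3.07-fold and AEBP2 2.08-fold lower. EZH2, the methyltransferase, had 8.58 on day 6 and 8.64 in E8. Of 11 genes for MLL complexes and the demethylases of the Polycomb mark, only KDM6B, a demethylase, was higher, by at least 1.96-fold, and 0 were lower, again beside 12.4% and 12.3% of all genes.

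Against BMP4 plus pyruvate at day 2, where 13.5% of all genes were higher and 13.0% lower, 5 of 8 TALE genes were higher on day 6 and 0 lower, MEIS2 by at least 64.7-fold and MEIS1 by at least 15.7-fold. PKNOX2 was higher by at least 5.97-fold, PBX2 by 2.89-fold and MEIS3 by 2.31-fold. CDX2 was 5.13-fold higher, while CDX4 was at least 4.51-fold and CDX1 at least 1.44-fold lower. Of 13 retinoic acid genes 5 were higher and 0 lower. The log2 difference was 6.65 for CYP26A1, 2.74 for STRA6 and 2.47 for CRABP2, and RXRG and ALDH1A2 were higher by at least 2.65-fold and 2.12-fold.

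Of 8 posterior signalling genes in that comparison 4 were higher on day 6 and 2 lower, with WNT5A 14.1-fold, WNT5B 2.44-fold, FGF17 2.26-fold and WNT3A at least 3.25-fold higher, NODAL 12.3-fold and WNT3 2.95-fold lower. WNT3, a gastrulation ligand, was thus above E8 but below the same mixture at day 2. Of 20 Polycomb genes BMI1, PHC2 and PHF1 were higher and PHC1 lower, and of 11 genes of MLL complexes and demethylases KDM6B and ASH2L were higher and KMT2A, WDR5 and KDM6A lower.

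In the remaining day 2 comparisons members of these lists also passed the rule, most often among the posterior signalling genes. BMP4 against E8 had WNT3 6.40-fold higher, WNT5A 2.93-fold lower and CYP26A1 3.35-fold lower, where 2.68% of all genes were higher and 2.51% lower. Pyruvate against E8 had FGF8 2.73-fold, NODAL 2.39-fold and WNT3 2.06-fold higher and DHRS3 2.51-fold lower. That is 3 of 6 posterior signalling genes higher, where 1.04% of all genes were higher and 1.32% lower. BMP4 plus pyruvate against BMP4 also had RDH10 2.37-fold higher, PBX2 2.33-fold lower and CYP26A1 2.06-fold lower. BMP4 plus pyruvate against pyruvate had WNT3 9.80-fold, NODAL 2.18-fold and RDH10 2.51-fold higher, WNT5B higher by at least 3.78-fold, FGF17 by at least 2.55-fold, CDX1 by at least 1.41-fold and CDX2 by at least 1.08-fold, and CYP26A1 3.97-fold lower. In the same comparison DHRS3 and KMT2A were 2.07-fold and 2.23-fold higher, and PBX2, JARID2, GDF11 and BMI1 were 2.62-fold, 2.29-fold, 2.09-fold and 2.03-fold lower. There 4 of 7 posterior signalling genes were higher and 1 lower, and 2 of 3 ParaHox genes were higher. Of all genes 6.45% were higher and 5.76% lower.

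Other transcripts in or beside the clusters mostly stayed at background or did not pass the rule. Of 8 detected on day 6 or in E8, 1 was higher on day 6, a share near the 12.4% of all genes that were higher. The higher transcript was HOXA11-AS, antisense at HOXA11, with 7.75 in BMP4 plus pyruvate at day 6 and 4.54 to 4.64 on the 4 day 2 arrays. It was at least 4.70-fold above E8. HOTTIP, the noncoding RNA at the HOXA13 end, was detected in pyruvate and E8 only. HOTAIR, the noncoding RNA of the HOXC cluster, was undetected on all arrays, and so were EVX1, EVX2, MEOX1 and MEOX2, homeobox relatives.

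Markers of several cell types also differed between day 6 and E8. Of 10 lateral and cardiac mesoderm markers 8 were detected on day 6 and 0 in E8, with summed log2 levels of 84.8 on day 6 and 47.4 in E8, and TBX5 and TBX20 undetected. Each sum covers all measured genes of a list, with undetected ones at their background signal, so it is not a level of detected genes alone. Of 5 definitive endoderm markers 4 were detected on day 6 and 0 in E8, with sums of 43.7 and 24.5. Of 12 trophoblast and amnion markers 6 were detected on day 6 and 3 in E8, with sums of 86.3 and 68.0. Of 7 detected on either array 5 were higher on day 6 and 1 lower (12.4% and 12.3% of all genes). TFAP2A, VTCN1, GATA3, GABRP and ISL1, which is also on the mesoderm list, were higher, and TFAP2C was lower. The largest differences of the list were those of ISL1, with 12.88 on day 6 and 5.08 in E8, and TFAP2A, with 11.26 and 4.67. KRT7, CGA and CGB5 were undetected on every array. Of the pluripotency markers, 9 of 9 were 2-fold or more lower on day 6. Of 6 primitive streak markers 5 were detected on day 6 and 1 in E8. In BMP4 plus pyruvate at day 2 already 5 were detected, with a summed log2 level of 56.1 there and on day 6, against 30.2 in E8. The equal sums hide differences of single markers. From day 2 to day 6 of BMP4 plus pyruvate TBXT went from 10.78 to 8.49 and MIXL1 from 9.82 to 8.78, both lower by the rule. MESP1 went from 7.11 to 9.68, and EOMES and SP5 differed by less than 2-fold. Of 8 endothelial and blood markers 3 were detected on day 6 and 2 in E8, and TEK, HBE1 and KDR were higher on day 6. Of 7 neuroectoderm markers 4 were detected on day 6 and 4 in E8, and of 5 neural crest markers 1 and 2. The part of these markers in the HOX levels was not tested. Among the neural lists SOX1 and PAX6 were undetected on all arrays, LHX2 had 8.58 on day 6 and 4.60 in E8, OTX2 had 9.40 on day 6 and 9.08 in E8, and SNAI2 had 10.56 on day 6 and 4.68 in E8. SIX3, ZIC1 and FOXD3 were lower on day 6. The summed log2 levels were 49.1 on day 6 and 48.7 in E8 for neuroectoderm, and 29.9 on day 6 and 26.9 in E8 for neural crest. All 6 paraxial mesoderm markers were undetected on all arrays.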

How the data were processed

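Total RNA of 5 H1 cultures was labelled as cRNA and hybridised to Illumina BeadChips, 1 array per condition, per the labels' protocols. Per the file headers, the deposited intensity values are not normalized, and a deposited detection p-value stands beside each. The authors' log2 values, in another deposited table, were made by steps not given in the sources used here and served only as an alternative. No scanner software or genome build is given in the sources used here.

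Intensities were corrected and normalized with neqc of limma 3.58.1 in R 4.3.3 (normexp from the detection p-values, offset 16, quantiles, log2), so differences are relative within an array and dim probes are shrunk. Probes were named from the platform annotation: 30105 had 1 gene symbol, and 30066 of them matched RefSeq by Entrez identifier, with 0 symbols updated. A gene's value is that of its probe with the highest mean signal, and a gene is detected if any probe is, at p under 0.01. A gene was called at a log2 difference of 1 or more in size, given detection on the brighter array. Where it was undetected on the dimmer array, the bound sets its bright value against the higher of its own dim value and the lowest signal of a detected probe there. Shares of called genes are over all genes detected on either array.

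No test was run, since each condition has 1 array. The 6 alternatives were no background correction, scaling to the 75th percentile, the deposited log2 values, an offset of 50, the mean of a gene's detected probes, and detection at p under 0.05. Every HOX gene with a probe was named, with the value on each array if detected on any. Of the 8 companion lists, members past the size rule were named, up to 6 per list and comparison by absolute difference, with others singled out after their values were seen. The 9 marker lists hold genes of other cell types. The HOX genes, the lists and these choices were made with earlier results of these data known. The calling steps were tested on simulated data, in which only bright probes were changed, so a rise from an undetected signal was not covered.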

Additional observations from a re-analysis of the deposited data

How the results depend on the processing

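Under all 6 alternatives all 13 HOX genes above E8 on day 6 kept a difference above 0, and 7 of them (HOXB2, HOXB5, HOXB6, HOXB7, HOXB8, HOXC6 and HOXD11) passed the size rule each time. The same held for all 10 genes above BMP4 plus pyruvate at day 2 and for 6 of them. Without background correction the higher HOX genes numbered 7 of 13 for day 6 against E8, 6 of 10 for day 6 against day 2, and 0 in place of 1 in each of BMP4 plus pyruvate against BMP4, pyruvate against E8 and BMP4 plus pyruvate against pyruvate. With an offset of 50 they numbered 8 for day 6 against E8, 7 for day 6 against day 2, and 0 in the same 3 day 2 comparisons. With the deposited log2 values the count was 0 for BMP4 plus pyruvate against BMP4 and 0 for pyruvate against E8. Scaling to the 75th percentile gave 0 for BMP4 plus pyruvate against BMP4, and 1 lower in place of 0, HOXD4, for BMP4 plus pyruvate against pyruvate. The cause was not tested. With the mean of a gene's detected probes the count was 11 for day 6 against day 2, through HOXB3, and the HOXB6 difference from E8 was 1.82 in place of 3.14 log2 units. With detection at p under 0.05, 1 gene was higher in BMP4 than in E8, HOXB4, and the HOX genes detected at day 2 numbered 8 in BMP4 plus pyruvate, 7 in BMP4 and 7 in pyruvate. Scaling moved the median of all genes to -0.14 for BMP4 plus pyruvate against BMP4, -0.18 for BMP4 plus pyruvate against pyruvate and 0.11 for day 6 against day 2. It changed the share of called genes that were higher to 33.7% in place of 54.9%, 37.1% in place of 52.8%, 66.9% in place of 51.6% for BMP4 against E8, and 62.8% in place of 44.1% for pyruvate against E8. No paired analysis was possible because each condition has 1 array. HOX signals near 6 lie close to the lowest detected signal of an array, 5.51 to 5.91, so their size is poorly fixed. Folds and bounds of bright genes also hold for the main setting only. The log2 difference of HOXB2 on day 6 from E8, 5.77, was 3.41 without background correction, 4.53 at an offset of 50 and 6.01 with scaling. That of HOXC6, 4.41, was 2.38, 3.44 and 4.60.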
